A study of Homo sapiens with 4 samples.

Results

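The genes described here were the 10 that license and start DNA replication: MCM2, MCM3, MCM4, MCM5, MCM6 and MCM7, the loading factors CDC6 and CDT1, the CDT1 inhibitor GMNN (geminin), and PCNA. They were picked from the 26485 gene names of each table by a rule on names that used no measured value. Earlier results of these data were known when they were chosen. All 10 were present in all 4 libraries. RNA was sequenced from SW1736 and 8505C, established lines of anaplastic thyroid cancer (ATC), as untreated wild-type (wt) cells and as paclitaxel-resistant cells, SW1736-PTX and 8505C-PTX. Paclitaxel stabilizes microtubules and blocks dividing cells in mitosis. The resistant cells came from 6 months of exposure to paclitaxel, raised from 1 nM to 1.5 µM, and were still kept in 1.5 µM, while wt cells received none, so that selection and the presence of the drug cannot be told apart. Each condition was 1 library, so no difference has a replicate check, no p-value was computed, and the lines are not replicates of each other.

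Before S phase, the origin recognition complex, CDC6 and CDT1 load the MCM2-7 ring onto origins of replication, which are then said to be licensed. The ring becomes the replicative helicase once CDC45 and the GINS complex join it. Geminin binds CDT1 after the start of S phase and so prevents a second round of loading, while PCNA is the sliding clamp that holds DNA polymerases on the template. Many of these genes are transcribed under E2F factors, are high in dividing cells, and are used as proliferation markers in tumours.

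Depth, computed from the ratio of coverage to FPKM (fragments scaled to transcript length and library size), lay between 43.5 and 57.9 M reads of 75 bp per library. SW1736-PTX stood apart from its parental line: across 14692 expressed genes, which are not independent replicates, its Pearson's r was 0.767 with SW1736 wt, 0.873 with 8505C wt and 0.933 with 8505C-PTX. SW1736 wt had an r of 0.845 or lower with each of the other 3 libraries. The thyroid factor PAX8 was at 38.2 FPKM (SW1736 wt) but 0.206 (SW1736-PTX), close to the 0.123 of 8505C wt, and NKX2-1 was listed at 0 in SW1736 wt but was at 36.3 in SW1736-PTX and 30.5 in 8505C wt. FOXE1 went the same way as PAX8, at 26.6 (SW1736 wt), 0.511 (SW1736-PTX) and 0.0443 (8505C wt). Other thyroid genes went the other way, with SW1736-PTX nearer on the log2 scale to SW1736 wt than to 8505C wt. DIO2 was at 3.34 (SW1736 wt), 1.53 (SW1736-PTX) and 0.0288 (8505C wt), and HHEX at 12.4, 11.7 and 5.92. In 8505C-PTX, DIO2 was at 0.0250 but HHEX at 14.4, so HHEX in SW1736-PTX was also close to that library. Whether the labels of the SW1736 libraries are right was not tested, and every SW1736 change rests on them. Changes of the licensing genes in the library labelled SW1736-PTX are therefore described against both wt libraries. So are those of other named replication and cell-cycle genes where the second baseline turned the direction or moved the gene past or short of the limit. TSHR and SLC5A5, which mark differentiated thyroid cells, were listed at 0 in all 4 libraries.

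In both resistant lines, all 10 licensing genes were lower than in the parental line, where 49.7% (SW1736) and 45.7% (8505C) of all genes were. A change is the log2 ratio of PTX to wt FPKM after adding 0.1 to each. Genes with more than 0.5 FPKM in 1 or both libraries were compared, and a gene is said to have fallen or risen when its change was beyond 1.5. The median change of the 10 genes was -1.08 in SW1736 and -2.04 in 8505C, beside 0.01 and 0.11 for all genes compared. By this limit 3 of the 10 fell in SW1736-PTX, where 10.2% of all 14202 genes compared fell, and 9 of the 10 fell in 8505C-PTX, where 5.89% of 13794 did. MCM5, MCM7 and PCNA fell in both lines, as did 2.41% of the 13304 genes compared in both. None rose, where 15.7% and 15.0% of all genes did. By more than 0.5, 10 were lower in SW1736 (32.0% of all genes) and 9 in 8505C (26.3%). Lower by any amount in both lines were 10 of 10 licensing genes and 32.7% of all genes. Between 993 and 28618 reads, estimated from FPKM, depth and transcript length, stood behind each value. The 95% interval from counting error alone was therefore narrow, between 0.04 and 0.11 on either side of a log2 change.

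**Figure D1:**
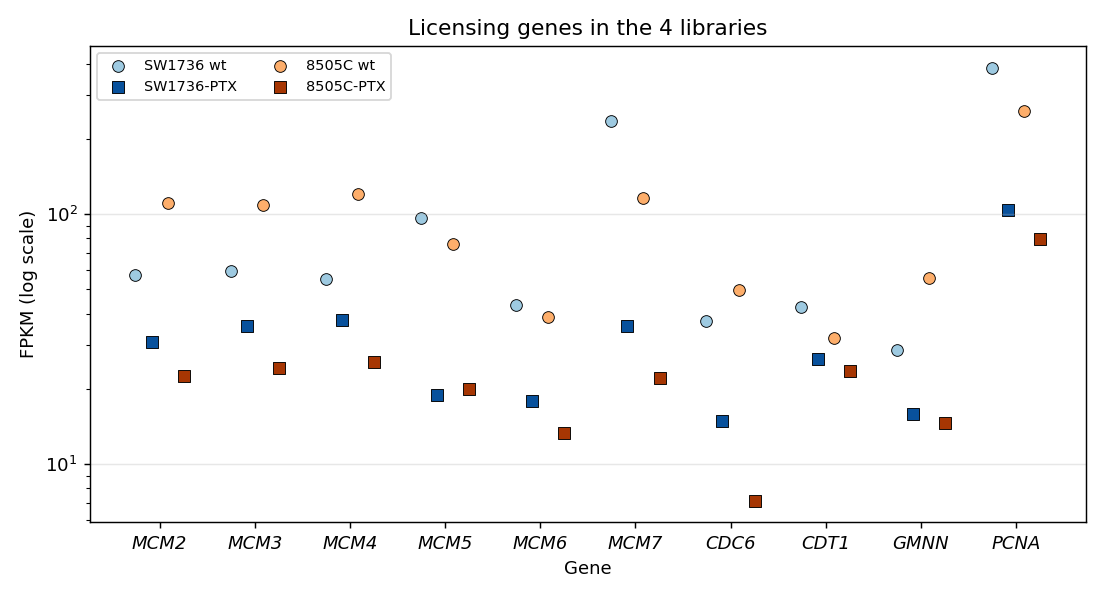
FPKM (log scale) of the 10 licensing genes in the 4 libraries, with circles for wt cells and squares for PTX cells, blue for SW1736 and orange for 8505C. For every gene both squares lie below both circles.

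The 6 MCM genes encode the subunits of the helicase ring. Their FPKM summed to 548 (SW1736 wt), 177 (SW1736-PTX), 572 (8505C wt) and 128 (8505C-PTX). The wt libraries had thus similar totals, and both PTX totals were below them. The median change of the 6 subunits was -1.08 in SW1736 (range -2.73 to -0.54) and -2.20 in 8505C (range -2.39 to -1.53). The decrease was more even across subunits in 8505C, where the changes spanned 0.86, than in SW1736, where they spanned 2.19.

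MCM7, a core subunit of the helicase, was at 237 FPKM (SW1736 wt), 35.6 (SW1736-PTX), 116 (8505C wt) and 22.2 (8505C-PTX). Its level in SW1736 wt stood above all other MCM values, and both PTX values were below both wt values. It fell 6.67-fold in SW1736-PTX, a log2 change of -2.73 (-2.78 to -2.69), and 5.25-fold in 8505C-PTX, -2.39 (-2.45 to -2.33). In SW1736 this was lower than the change of 96.5% of all genes compared. MCM5, which lies at the gate of the ring with MCM2, was at 96.4 FPKM (SW1736 wt), 18.9 (SW1736-PTX), 75.9 (8505C wt) and 20.0 (8505C-PTX). It fell in both lines, 5.09-fold and 3.78-fold, and the PTX libraries ended at nearly the same level.

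MCM2, MCM3 and MCM4 had levels and changes close to one another. MCM2, the other gate subunit, was at 57.1 FPKM (SW1736 wt) beside 30.9 (SW1736-PTX), and at 111 (8505C wt) beside 22.5 (8505C-PTX). MCM3 was at 59.5 FPKM (SW1736 wt) beside 35.7 (SW1736-PTX), and at 109 (8505C wt) beside 24.3 (8505C-PTX). MCM4, a subunit phosphorylated by the CDC7 kinase, was at 55.0 FPKM (SW1736 wt) beside 37.8 (SW1736-PTX), and at 121 (8505C wt) beside 25.7 (8505C-PTX). All 3 genes were higher in 8505C wt than in SW1736 wt, by 0.88 to 1.13 on the log2 scale, but lower in 8505C-PTX than in SW1736-PTX. Their log2 changes were -0.88, -0.73 and -0.54 in SW1736, none beyond the limit, and -2.29, -2.17 and -2.23 in 8505C, where all 3 fell. The changes of the lines differed by 1.41 for MCM2, 1.43 for MCM3 and 1.69 for MCM4, well beyond counting error, but without replicates this difference was not tested.

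MCM6 was the lowest of the 6 subunits in every library, at 43.2 FPKM (SW1736 wt), 17.9 (SW1736-PTX), 38.8 (8505C wt) and 13.4 (8505C-PTX). Its log2 change was -1.27 (-1.32 to -1.21) in SW1736 and -1.53 (-1.59 to -1.46) in 8505C, where the counting interval includes the limit.

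CDC6, the ATPase that completes the ring loader on origins, was at 37.5 FPKM (SW1736 wt), 14.9 (SW1736-PTX), 50.0 (8505C wt) and 7.15 (8505C-PTX). It had the largest fall of the 10 genes in 8505C-PTX, 6.99-fold, a log2 change of -2.79 (-2.86 to -2.72) that ranked 147 from the lowest of 13794 genes. In SW1736 its change was -1.33 (-1.38 to -1.27), short of the limit. CDC6 was also the gene that separated the PTX libraries most, with 2.08-fold less in 8505C-PTX than in SW1736-PTX.

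CDT1, which brings MCM2-7 to the origin, had the change nearest to 0 of the 10 genes in 8505C and, after MCM4, in SW1736. It was at 42.4 FPKM (SW1736 wt), 26.4 (SW1736-PTX), 32.0 (8505C wt) and 23.6 (8505C-PTX). The PTX libraries kept 62.3% and 73.8% of the wt level, and the log2 changes of -0.68 and -0.44 were close to the lower quartile of all genes, -0.72 in SW1736 and -0.54 in 8505C. GMNN, its inhibitor, was at 28.7 FPKM (SW1736 wt), 15.9 (SW1736-PTX), 55.5 (8505C wt) and 14.7 (8505C-PTX). It fell in 8505C-PTX, -1.91 (-2.02 to -1.81), and had a change of -0.85 (-0.96 to -0.74) in SW1736. The ratio of CDT1 to GMNN in FPKM was 1.48 (SW1736 wt), 1.66 (SW1736-PTX), 0.577 (8505C wt) and 1.61 (8505C-PTX). Only 8505C wt had more GMNN than CDT1 mRNA, and the other 3 libraries lay close together.

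PCNA was the most abundant of the 10 genes in each library, at 386 FPKM (SW1736 wt), 104 (SW1736-PTX), 258 (8505C wt) and 79.7 (8505C-PTX). It fell 3.72-fold in SW1736-PTX, a log2 change of -1.89 (-1.93 to -1.86), and 3.24-fold in 8505C-PTX, -1.69 (-1.74 to -1.65). Even so, it stayed above 94.0% of the genes expressed above 0.5 FPKM in 8505C-PTX and above 95.3% in SW1736-PTX.

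**Figure D2:**
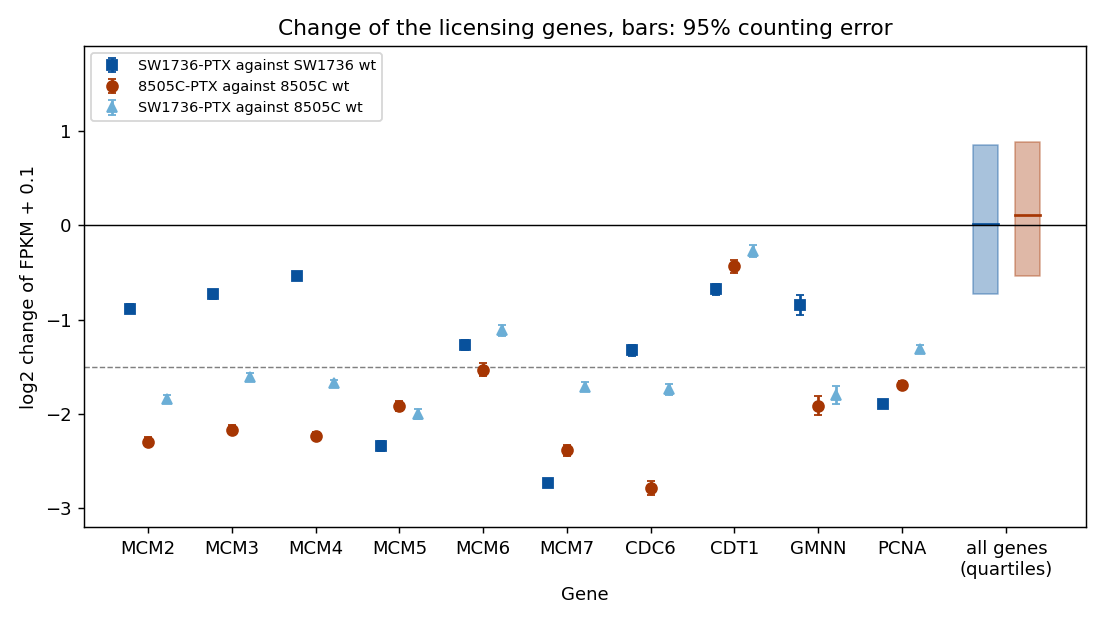
Log2 change of FPKM + 0.1 for each licensing gene in SW1736-PTX against SW1736 wt (squares), 8505C-PTX against 8505C wt (circles) and SW1736-PTX against 8505C wt (triangles). Error bars are 95% counting intervals, the dashed line is the limit of -1.5, and the boxes at the right give the quartiles and median of all genes. All points lie below 0, and CDT1 is nearest to it in 8505C.

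Since SW1736-PTX was closer to 8505C wt than to its own parental library across genes, its levels were also set against 8505C wt. These 2 comparisons share the library SW1736-PTX, and the second shares 8505C wt with the 8505C pair. All 10 genes were again lower (45.9% of 13824 genes were), 9 by more than 0.5 (25.1%) and 7 by more than 1.5 (5.23%), and none was higher by more than 1.5 (15.1%). The median change of the MCM subunits was -1.69 and no longer -1.08, and its spread over subunits narrowed from 2.19 to 0.88. MCM2 had -1.84 (in place of -0.88), MCM3 -1.61, MCM4 -1.67, CDC6 -1.74 and GMNN -1.80, all past the limit only with this baseline, while PCNA went from -1.89 to -1.31 and no longer passed it. CDT1 was at 82.6% of its 8505C wt level, a log2 change of -0.28 (-0.34 to -0.21).

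Between the wt libraries none of the 10 genes differed by more than 1.5, where 9.92% of 13457 genes were lower and 7.73% higher in 8505C wt. By more than 0.5, 4 genes were higher in 8505C wt (MCM2, MCM3, MCM4 and GMNN), where 22.9% of all genes were, and 2 were lower (MCM7 and PCNA), where 31.2% were. Between the PTX libraries none differed by more than 1.5 either, where 4.09% of 13986 genes were lower and 3.70% higher in 8505C-PTX. There, 9 of the 10 genes were lower in 8505C-PTX, MCM5 being the exception at 0.08 (0.02 to 0.15), beside 50.5% of all genes. The interval for GMNN, -0.24 to 0.01, includes 0, and CDC6, at -1.05, was farthest from it.

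The balance of the 6 subunit mRNAs within a library also differed. The ring holds 1 copy of each subunit, and FPKM is scaled to transcript length, so the levels can be compared within a library. The highest subunit was 5.49 times the lowest in SW1736 wt, 2.11 times in SW1736-PTX, 3.11 times in 8505C wt and 1.92 times in 8505C-PTX. In SW1736 wt the order was MCM7, MCM5, MCM3, MCM2, MCM4 and MCM6, with MCM7 at 3.14 times the geometric mean of the 6. In the other 3 libraries MCM4 was highest and MCM7 lay between 1.06 and 1.31 times that mean, while MCM6 was lowest throughout. Neighbours in these orders were often close, such as MCM2 with 22.5 and MCM7 with 22.2 FPKM in 8505C-PTX. The standard deviation of log2 FPKM over the subunits was 0.89 (SW1736 wt), 0.49 (SW1736-PTX), 0.64 (8505C wt) and 0.34 (8505C-PTX). CDC6 relative to the median of the MCM subunits was 0.643, 0.448, 0.454 and 0.320 in the order SW1736 wt, SW1736-PTX, 8505C wt and 8505C-PTX, and was lower in each PTX library than in its wt library. CDT1 on the same scale was 0.728, 0.796, 0.291 and 1.06, so that in 8505C-PTX its mRNA was as abundant as that of a typical subunit.

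**Figure D3:**
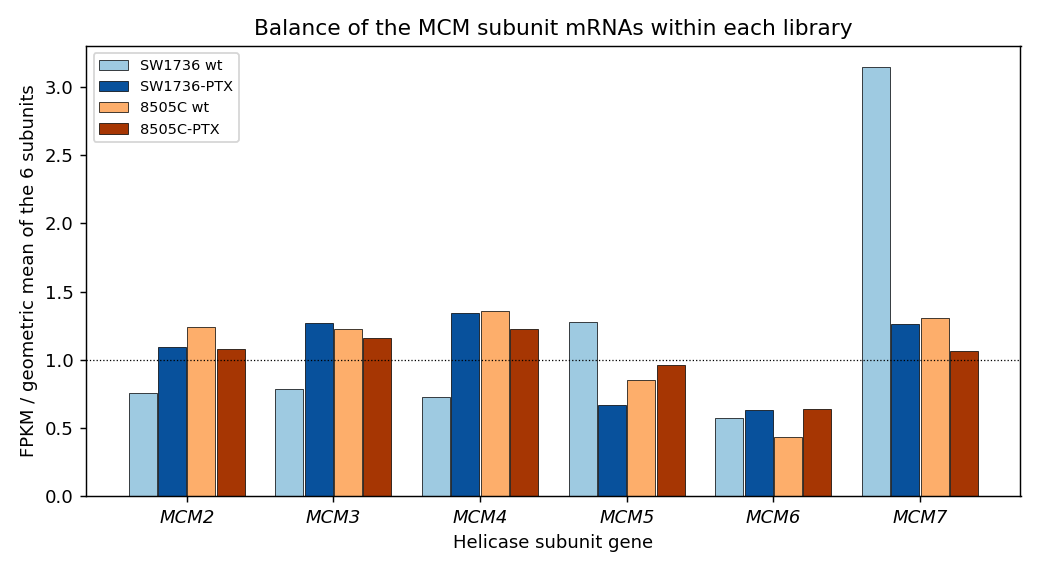
FPKM of each MCM subunit gene divided by the geometric mean of the 6 in the same library, with 1 bar per library and the dotted line at 1. MCM7 in SW1736 wt stands out at 3.14, and the bars of the PTX libraries lie between 0.63 and 1.34.

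The 10 genes lie on 9 chromosomes. In the tables (hg38) MCM2 spans 127598357 to 127622435 on chromosome 3, MCM3 52264014 to 52284881 on chromosome 6, MCM4 47960203 to 47978159 on chromosome 8 and MCM5 35400123 to 35424502 on chromosome 22. MCM6 spans 135839626 to 135876477 on chromosome 2 and MCM7 100092728 to 100101940 on chromosome 7. CDC6 spans 40287894 to 40303161 on chromosome 17, CDT1 88803778 to 88809258 on chromosome 16, GMNN 24774931 to 24786097 on chromosome 6 and PCNA 5114953 to 5126622 on chromosome 20. The values cover all annotated transcripts of each locus, and the main (MANE Select) transcripts of GENCODE release 44 have between 6 exons (PCNA) and 17 (MCM3, MCM4, MCM5 and MCM6).

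For 8 of the 10 genes in SW1736 the other compared genes within 1 Mb had median changes between -0.34 and 0.81. MCM7 was different. Its 63 compared neighbours on chromosome 7 had a median of -1.75 in SW1736-PTX against SW1736 wt, and 40 of them fell, so that MCM7 was 0.99 below its surroundings. Against 8505C wt the neighbours of MCM7 in SW1736-PTX had a median of -0.72, with 7 of 54 fallen, and in 8505C-PTX -0.68, with 5 of 57. Between the wt libraries MCM7 (-1.02) and the median of its 60 neighbours (-0.98) were lower in 8505C to almost the same extent. PCNA was the second such gene in SW1736, with a median of -1.08 over 14 neighbours, but not in 8505C, with 0.19 over 13. The part of these neighbourhoods in the changes of MCM7 and PCNA was not tested. Each of the 10 genes was lower than the median of its neighbours in both lines.

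**Figure D4:**
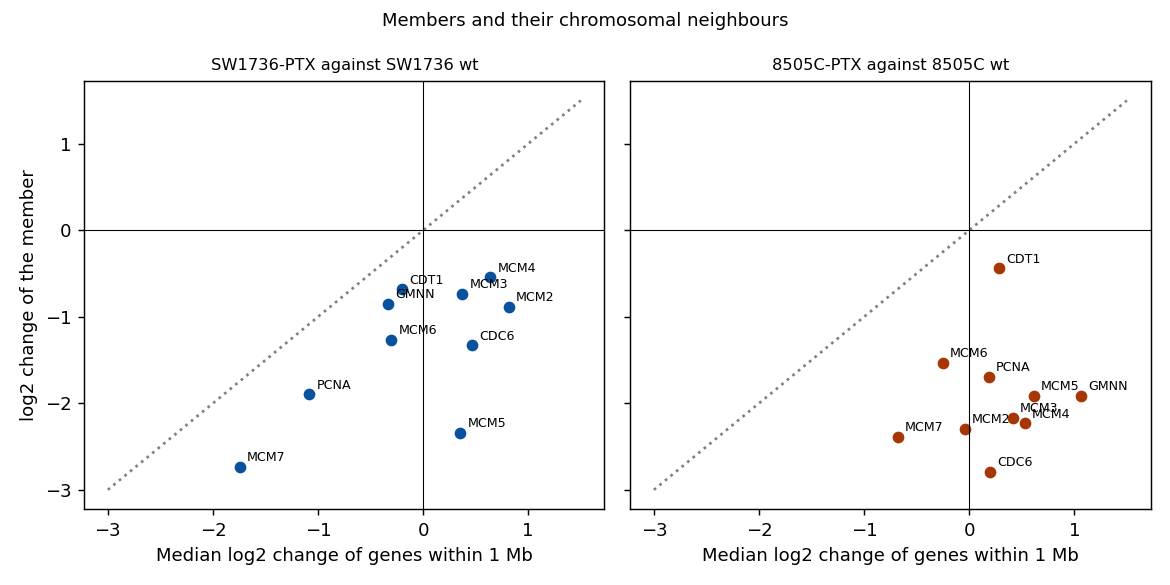
Log2 change of each licensing gene (vertical) against the median log2 change of the other compared genes within 1 Mb (horizontal), for SW1736 (left) and 8505C (right), with equality as the dotted line. All points lie below the line, and MCM7 in SW1736 has the lowest neighbourhood, at -1.75.

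AP4M1 overlaps MCM7 on the other strand and MIR25, MIR93 and MIR106B lie within it, and whether strand was used in quantification is not given in the sources used here. AP4M1 was at 9.32 FPKM in SW1736 wt and at 2.32, 4.24 and 2.13 in SW1736-PTX, 8505C wt and 8505C-PTX, so it held little signal beside MCM7. PCNA-AS1 and the pseudogene PCNAP1 were listed at 0 in all libraries.

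The stretches before the start sites of 4 of these genes are shown because the genes were lower together and E2F factors are known regulators of this group. Promoter windows (250 bases before and 50 after a start site, RefSeq, GRCh38.p14) matched 8 of the 10 genes, all but MCM4 and MCM5. They were searched on both strands for TTTNNCGC, an E2F-type motif, and for CCAAT, the box bound by NF-Y. MCM6 and MCM7 represent the ring, CDC6 had the largest fall in 8505C-PTX, and CDT1 was the one licensing gene that did not fall there. Each line gives the 160 bases before the MANE Select start, 5′ to 3′ on the strand of the gene, with whole motif matches in capitals (a match on the other strand appears as its reverse complement).
MCM6, chr2:135876444-135876603, minus strand: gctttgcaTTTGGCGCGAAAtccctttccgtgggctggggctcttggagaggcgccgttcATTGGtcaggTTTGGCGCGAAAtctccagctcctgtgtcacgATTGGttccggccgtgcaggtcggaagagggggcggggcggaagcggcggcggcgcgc
MCM7, chr7:100101398-100101557, minus strand: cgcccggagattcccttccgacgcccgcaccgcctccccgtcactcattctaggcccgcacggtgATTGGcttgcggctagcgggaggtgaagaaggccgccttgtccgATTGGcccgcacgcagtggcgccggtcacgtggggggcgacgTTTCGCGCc
CDC6, chr17:40287719-40287878, plus strand: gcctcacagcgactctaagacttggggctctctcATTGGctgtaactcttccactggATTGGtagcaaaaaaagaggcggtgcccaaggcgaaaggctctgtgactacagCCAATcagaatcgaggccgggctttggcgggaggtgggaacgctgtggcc
CDT1, chr16:88803629-88803788, plus strand: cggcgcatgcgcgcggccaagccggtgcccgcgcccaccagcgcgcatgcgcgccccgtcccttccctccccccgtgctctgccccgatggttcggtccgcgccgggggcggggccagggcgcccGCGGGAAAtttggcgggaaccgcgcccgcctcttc

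In the stretch of MCM6 the E2F-type motif occurs 4 times, as 2 pairs that overlap on opposite strands, with 2 CCAAT boxes. MCM7 holds 1 E2F-type match close to the start site and 2 CCAAT boxes. CDC6 has 3 CCAAT boxes in the stretch shown, and its single match to TTTNNCGC lies just after the start site. CDT1 has 1 match to TTTNNCGC and no CCAAT. Forms that differ from this pattern in the last base were not counted, such as the tttggcgg before the start sites of CDC6 and CDT1. In the window at the MANE Select start, 6 of the 8 genes had a TTTNNCGC, compared with 6.89% of all 35116 windows, and 5 had a CCAAT, compared with 34.6%. Counting any window of a gene, all 8 had a TTTNNCGC, beside 8.23% of all 27305 genes in the table and 28 of 73 other replication genes. A match describes the letters of these windows only.

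The other genes of replication were taken from 7 lists chosen by their role, with earlier results of these data known. Of 89 names, 87 were in the tables and 85 were compared in each line. In SW1736, 22 fell (25.9%, beside 10.2% of all genes) and none rose, with a median of -1.02. In 8505C, 37 fell (43.5%, beside 5.89%) and 1 rose, with a median of -1.37. In both lines 19 fell, as did 2.41% of all genes, and 69 of the 85 were lower by any amount, as were 32.7% of all genes. Against 8505C wt, 25 of the 85 fell in SW1736-PTX (29.4%, beside 5.23%), with a median of -1.08. The counts of fallen genes in the single lists below stand beside the same shares of all genes, 10.2% (SW1736) and 5.89% (8505C).

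Of the 6 genes of the origin recognition complex, on which licensing starts, 3 fell in each line. These were ORC1, the subunit regulated in the cell cycle, from 11.9 to 3.44 FPKM (SW1736) and 12.3 to 2.54 FPKM (8505C), and ORC5 and ORC6. ORC6 was at 35.3 FPKM (SW1736 wt) beside 7.79 (SW1736-PTX), and at 24.9 (8505C wt) beside 6.65 (8505C-PTX). ORC5 had log2 changes of -2.83 and -1.86, and like MCM7 it lies on chromosome 7 among neighbours that were lower in SW1736 (median -1.57 over 8 genes). ORC4 was nearest to 0, with -0.49 and -0.46.

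Of 5 compared genes for other MCM proteins and MCM binders, 2 fell in SW1736 and 1 in 8505C. MCM10, which is needed to activate the helicase, fell the most of the other MCM genes, from 25.9 to 3.60 FPKM (SW1736) and 19.5 to 2.39 FPKM (8505C), or 7.18-fold and 8.14-fold. MCM8 barely passed the limit in SW1736 (-1.53), did not against 8505C wt (-1.08), and was just short of it in 8505C (-1.498). MCM9, which works with MCM8 in repair, and MCM3AP had smaller changes, -0.43 and -0.59 for MCM9 and -1.17 and -0.48 for MCM3AP. Against 8505C wt they were at -1.36 and -1.44 in SW1736-PTX.

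Helicase activation and origin firing held 18 compared genes, of which 6 fell in SW1736 and 11 in 8505C. CDC45 fell from 37.4 to 9.18 FPKM (SW1736) and 29.9 to 5.47 FPKM (8505C). Of the GINS subunits, GINS1, GINS2 and GINS4 fell in both lines, GINS2 the most in SW1736 (57.1 to 10.4 FPKM) and GINS4 in 8505C (23.1 to 3.09 FPKM). CLSPN, an adaptor of the replication checkpoint, fell as well (-1.90 and -2.92). DONSON, a scaffold for the assembly of the helicase, fell in SW1736 (-2.45) and was at -1.43 in 8505C. The acetyltransferase KAT7, which acts on origin chromatin, was not lower in either line (0.68, or 0.06 against 8505C wt, and 0.34).

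DBF4, the activating subunit of the CDC7 kinase that phosphorylates the MCM ring, was the only one of the 85 to rise in either line. It was at 17.2 FPKM (SW1736 wt), 19.3 (SW1736-PTX), 12.2 (8505C wt) and 57.0 (8505C-PTX), and rose in 8505C-PTX alone (log2 change 2.22, against 0.17 in SW1736). It shares its locus on chromosome 7 with SLC25A40 on the other strand (5.06 FPKM in 8505C wt and 60.2 in 8505C-PTX), so that reads may be split between them. All 13 of its compared neighbours within 1 Mb rose in 8505C-PTX, with a median of 4.21. In SW1736-PTX 9 of 12 rose, with a median of 2.82.

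CDT1 and geminin turnover showed mixed values. DTL, the adaptor that leads CDT1 to degradation on PCNA, fell from 16.4 to 3.15 FPKM (SW1736) and 13.6 to 2.17 FPKM (8505C). The other parts of its ligase were nearer to 0, such as CUL4B with -0.24 (1.18 against 8505C wt) and 1.11, and RBX1 with 0.22 (0.07 against 8505C wt) and -0.57. CUL4A, the other cullin of this ligase, was lower in both lines. It was at -0.56 (-1.16 against 8505C wt) and at -1.48, just short of the limit. Of the 11 compared genes in this list, 1 fell in SW1736, near the share of all genes, and 2 fell in 8505C. The list's median was -0.35 in SW1736 and -0.57 in 8505C.

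Among clamp loaders and PCNA partners, 6 of 18 compared genes fell in SW1736 and 12 of 18 in 8505C. The lowest was UHRF1, which directs maintenance DNA methylation behind the fork, from 77.5 to 13.4 FPKM (SW1736) and 58.2 to 6.43 FPKM (8505C). RFC3 and RFC4, subunits of the clamp loader, the flap nuclease FEN1 and the chromatin assembly subunits CHAF1A and CHAF1B fell in both lines, although FEN1 (-1.51) and CHAF1A (-1.53) barely passed in SW1736 and did not against 8505C wt. RFC1, the large loader subunit, was at 0.64 in SW1736, -0.24 against 8505C wt, and -0.33 in 8505C. Of 19 polymerase and RPA genes, 2 fell in SW1736, POLE2 (-2.24) and the nuclease DNA2 (-2.37), and 6 in 8505C, among them both of these and PRIM2 (-2.24). The SW1736 count is near the share of all genes that fell there, 10.2%, while 5.89% fell in 8505C. PRIM2 was at -0.82 in SW1736 but at -1.64 against 8505C wt. POLD4 was at 0.09 and 0.51. For nucleotide supply, RRM2, the S-phase subunit of ribonucleotide reductase, fell from 137 to 29.9 FPKM (SW1736) and 122 to 27.6 FPKM (8505C). RRM2B, the p53-regulated alternative subunit, was at 1.40 (0.48 against 8505C wt) and 0.49.

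**Figure D5:**
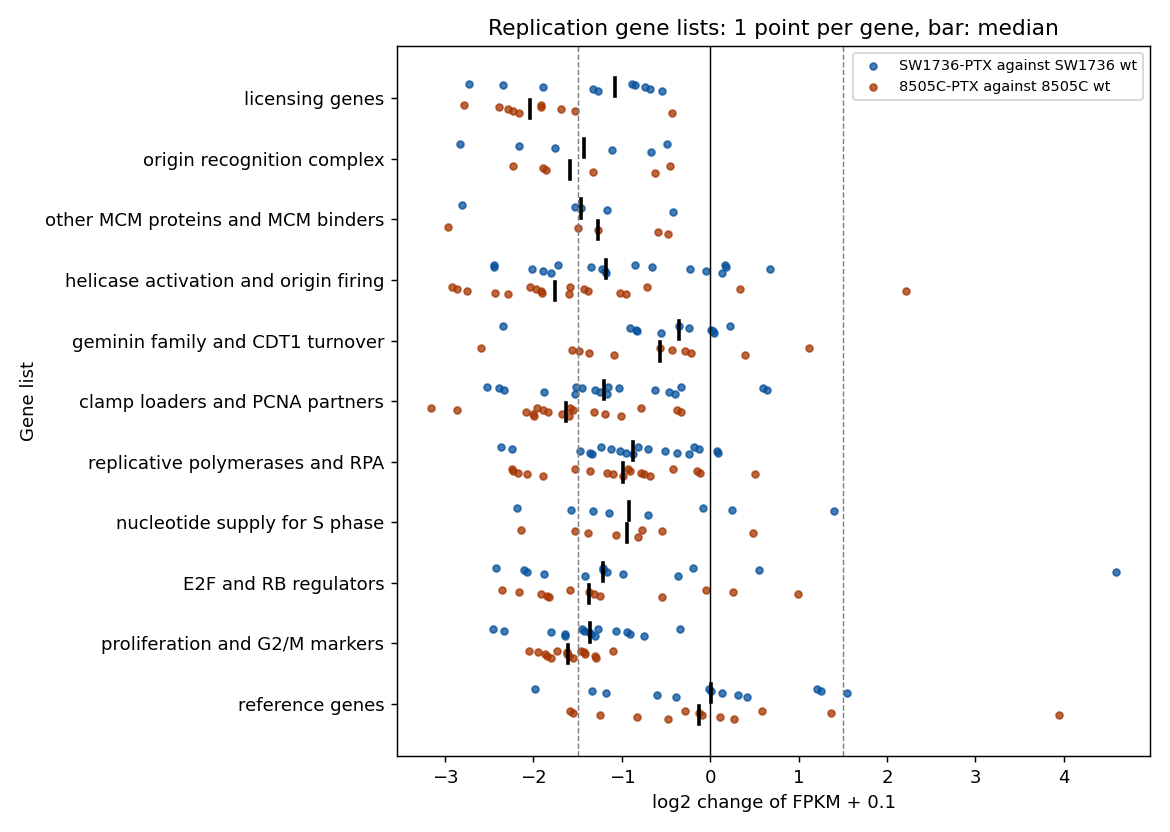
Log2 change of FPKM + 0.1 in SW1736-PTX (blue) and 8505C-PTX (orange) against their own wt, with 1 point per compared gene, black bars at list medians and dashed lines at the limits of -1.5 and 1.5. The licensing genes have medians of -1.08 and -2.04, the medians of the replication lists lie to the left of 0, and the reference genes centre on 0.01 and -0.13.

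Among genes that control entry into S phase, 11 of 13 E2F and RB genes were lower in each line, and 11 of 17 (SW1736) and 9 of 16 (8505C) cyclins, kinases and inhibitors of G1/S, beside 49.7% and 45.7% of all genes. The G1/S shares of genes lower by any amount are not far above those of all genes. By the limit, 5 of the 17 fell and 2 rose in SW1736, where 10.2% of all genes fell and 15.7% rose. In 8505C, 6 of the 16 fell and 2 rose, where 5.89% of all genes fell and 15.0% rose. Of the 13 E2F and RB genes, 4 fell in SW1736 and 6 in 8505C, among them in both lines TFDP1 (the partner of E2F proteins, 76.1 to 14.1 and 75.2 to 14.6 FPKM), E2F8 and RB1. E2F5 rose in SW1736-PTX against its own wt (0.0524 to 3.58 FPKM) but was at 0.27 against 8505C wt, and the RB relative RBL2 was at 0.55 and 0.99. Of the cyclins and regulators of G1/S, CCNE1, CCNE2, CCND3 and CDC25A fell in both lines, and the inhibitor CDKN1C rose in both, from 0.878 to 14.1 FPKM (SW1736) and 0.847 to 13.8 FPKM (8505C). All 16 proliferation and G2/M genes were lower in both lines, with medians of -1.36 and -1.61. MKI67 fell from 110 to 19.9 and from 62.8 to 18.0 FPKM, and FOXM1, MYBL2 and TPX2 fell in both lines too. Against 8505C wt, CCNE1 (-1.49) and TPX2 (-1.47) did not pass the limit in SW1736-PTX. CDC20 was at -1.31 in SW1736 (-1.57 against 8505C wt) and was the lowest of them in 8505C (-2.05), and TOP2A was nearest to 0 in both (-0.34 and -1.10). In bulk RNA, fewer cells in S phase and less mRNA in each such cell cannot be told apart, and the part of these proliferation genes in the values of the licensing genes was not tested.

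The pattern of the MCM subunits over the 4 libraries was compared with that of all 14682 other expressed genes, by the Euclidean distance of log2(FPKM + 0.1), centred for each gene, from the subunits' median. The 5 nearest genes were PNO1 (distance 0.0821), TICRR (0.0885), ALYREF (0.0908), RRP36 (0.102) and KIF24 (0.125). TICRR takes part in origin firing, PNO1 and RRP36 in ribosome assembly, ALYREF in mRNA export, and KIF24 is a kinesin. TICRR was at 5.94 FPKM (SW1736 wt), 2.57 (SW1736-PTX), 7.89 (8505C wt) and 1.93 (8505C-PTX), and so had the order of the MCM median at a far lower level. Its log2 change in SW1736-PTX was -1.18, but -1.58 and past the limit against 8505C wt. Of the licensing genes MCM3 was nearest to the median (0.304, with 48 other genes nearer) and MCM7 farthest (1.47, with 4152 nearer). Each of the 10 genes thus had other genes nearer to this median than itself. Whether the 10 genes form a group of their own over these 4 libraries was not tested.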

How the data were processed

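One mRNA library (Universal Plus mRNA-Seq kit, single-end reads of 75 bp) was sequenced per condition. According to the methods, the authors trimmed reads with Cutadapt and ERNE, used STAR for alignment to hg38 and StringTie for transcript assembly and quantification. The deposited tables hold gene-level values. The submitters' processing notes also name bcl2fastq 2.20. The annotation and the versions of ERNE, STAR and StringTie are not given in the sources used here. Per the file headers, each table gives read coverage per base (not scaled for depth), FPKM and TPM. The deposited FPKM values were the main unit, the deposited coverage gave the depth, and the authors' TPM column served as an alternative. No read counts were used, so no count model was fitted.

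FPKM of rows with the same gene name were summed. Log2 changes used a pseudocount of 0.1, which understates changes of low genes. The limits (FPKM above 0.5, log2 change beyond 1.5) are those of the methods, and applying the first to at least 1 library was a choice made here. Reads per gene were estimated from FPKM, depth and the MANE Select length (GENCODE release 44, hg38), and intervals cover counting error only. The genes, lists and tests were chosen with earlier results of these data known. Named genes were the 10 members, in each list those called in both lines in the same direction and the highest and lowest in each line, and the 5 nearest in pattern. CUL4A and MCM8 were added beside these. All steps ran in Python 3.11.15 with pandas 2.3.3 and NumPy 2.4.6, and plots in matplotlib 3.10.9.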

Additional observations from a re-analysis of the deposited data

Results flagged for a closer look

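Of the genes whose changes are given here, 3 had opposite signs in the 2 lines against their own wt, none beyond 1.5, and with 1 library per condition the difference was not tested. CUL4B, a scaffold of the ligase that degrades CDT1, had a log2 change of -0.24 in SW1736 and 1.11 in 8505C. CUL4A, its other scaffold, was lower in both lines, at -0.56 and -1.48. RBX1, the RING subunit of the same ligase, was at 0.22 and -0.57. RFC1, the large subunit of the clamp loader, was at 0.64 and -0.33. Against 8505C wt, SW1736-PTX was at 1.18 for CUL4B, 0.07 for RBX1 and -0.24 for RFC1, so that CUL4B and RFC1 then had the sign they have in 8505C. None of the 10 licensing genes had opposite signs in the lines.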

How the results depend on the processing

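All 10 licensing genes stayed below 0 in both lines in each of the 120 values recomputed for single genes under other pseudocounts (0.01 and 1), TPM, and centring on all genes, on reference genes or on GAPDH, the last chosen after seeing the data. A pseudocount added to both values cannot turn a sign. The centring shifts, from -0.126 to 0.106, could not either, as the change nearest to 0 was -0.44 (CDT1 in 8505C). In SW1736 the reference genes and GAPDH gave the same shift, 0.00783, because GAPDH is a reference gene and held their median there. These settings are therefore not separate checks in SW1736. The FPKM filters and the choice of row cannot move these genes, which have 1 row each and lie above 0.5 FPKM. In 8505C the median change of the MCM subunits, -2.20, became -2.30 when centred on all genes or on GAPDH and -2.07 when centred on the reference genes. MCM6 no longer passed the limit in 8505C when centred on the reference genes (-1.40) or with a pseudocount of 1 (-1.47), which left 8 genes in place of 9. With 8505C wt as the baseline of SW1736-PTX, 7 genes passed the limit in place of 3 and the median of the MCM subunits was -1.69. With SW1736 wt as the baseline of 8505C-PTX, 5 passed in place of 9 and the median was -1.51. A limit of 1 gave 5 genes in SW1736, and a limit of 2 gave 5 in 8505C. No paired analysis was possible because each condition has 1 library, and for the same reason no replicate could be left out. Depth did not limit these genes, but variation between cultures is unknown.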
